A study of Mus musculus with 8 samples.

Results

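The genes of elastin and of the proteins that assemble it into elastic fibres were measured in the ascending aorta of 8 mice of the C57BL/6 strain. The list holds 10 genes, namely Eln, Lox, Loxl1, Fbln2, Fbln5, Fbn1, Ltbp4, Mfap4, Mfap5 and Emilin1, and its members were taken as every probe of the deposited table whose platform annotation gives 1 of these symbols. That gave 13 probes for 9 of the 10 genes, and Fbn1, the gene of fibrillin-1, was not analysed here. Of the 9 genes, 8 were among the 10040 genes tested, and the single Fbln5 probe lay below background on all 8 arrays. All 8 tested members were above background on every array.

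The animals fell into 3 groups. Mice with mucopolysaccharidosis VII (MPS VII), a lysosomal storage disease in which beta-glucuronidase is lacking, formed 2 of them. There were 3 MPS VII mice whose aorta was dilated, aged 7.8, 9.1 and 6 months, and 2 MPS VII mice whose aorta was not, aged 5.8 and 6.7 months. The 3 normal mice were aged 5.8, 6.4 and 7 months, and every group held females and males. Each array carried the RNA of 1 mouse. Gusb, which encodes beta-glucuronidase, read 190.1, 217.5 and 184.4 intensity units in the dilated aortas, 111.6 and 125.3 in the MPS VII aortas without dilatation and 1093.9, 992.4 and 1172.3 in the normal aortas (probe 6180678), in the direction that the labels give. The dim probe 7200333 did not separate the groups, with 31.6, 39.6 and 40.8 in dilated, 32.7 and 27.2 in not dilated and 45.8, 35.0 and 43.8 in normal aorta, and probe 1190193 passed the background bound only on normal replicate 2. The labels do not name the allele that the MPS VII mice carry.

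Elastic fibres let large arteries stretch with each heartbeat and recoil after it. Vascular smooth muscle cells secrete tropoelastin, the product of Eln, and fibulins and latent TGF-beta binding proteins help to place it on a scaffold of fibrillin microfibrils. Lysyl oxidases then cross-link it into an insoluble polymer that is mostly laid down before adulthood and turns over slowly.

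In the dilated aortas 3 of the 8 tested members were higher than in normal aorta and 2 were lower. Over all genes tested 9.82% passed as higher and 10.4% as lower in this comparison. Eln, the lysyl oxidase gene Lox and the fibulin gene Fbln2 rose, and Ltbp4 and the microfibril gene Mfap5 fell. In MPS VII aorta without dilatation only the falls of Ltbp4 and Mfap5 passed the test, while the values of Lox and Fbln2 overlapped with normal ones there. Of all genes tested, 4.84% passed as higher and 5.17% as lower without dilatation. Loxl1, Mfap4 and Emilin1 did not pass in any comparison made here.

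Among the 10 genes, 5 have promoter windows in the RefSeq table of build GRCm38.p6, which runs from 250 bases before a gene's start to 50 after it. Those of Fbln2 and Ltbp4 are shown because these genes had the largest rise and the largest fall of the tested members in dilated aorta. They are printed 5′ to 3′ on the gene's own strand, and capitals mark the GC box GGGCGG on either strand, counting overlapping matches. The Fbln2 window is chr6:91212514-91212813 on the plus strand, and the Ltbp4 windows are chr7:27337563-27337862 and chr7:27333599-27333898 on the minus strand, at 2 of its annotated starts.
Fbln2: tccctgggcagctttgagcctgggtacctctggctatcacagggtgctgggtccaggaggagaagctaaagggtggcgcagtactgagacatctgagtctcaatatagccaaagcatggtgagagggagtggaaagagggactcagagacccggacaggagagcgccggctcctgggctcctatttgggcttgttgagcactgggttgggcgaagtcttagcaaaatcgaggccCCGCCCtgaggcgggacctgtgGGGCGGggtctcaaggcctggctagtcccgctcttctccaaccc
Ltbp4, upstream start: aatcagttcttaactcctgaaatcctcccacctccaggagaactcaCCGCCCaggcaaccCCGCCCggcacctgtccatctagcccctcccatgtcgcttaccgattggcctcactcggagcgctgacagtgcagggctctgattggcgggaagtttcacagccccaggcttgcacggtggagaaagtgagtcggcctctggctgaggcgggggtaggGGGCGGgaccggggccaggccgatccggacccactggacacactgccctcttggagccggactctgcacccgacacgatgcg
Ltbp4, downstream start: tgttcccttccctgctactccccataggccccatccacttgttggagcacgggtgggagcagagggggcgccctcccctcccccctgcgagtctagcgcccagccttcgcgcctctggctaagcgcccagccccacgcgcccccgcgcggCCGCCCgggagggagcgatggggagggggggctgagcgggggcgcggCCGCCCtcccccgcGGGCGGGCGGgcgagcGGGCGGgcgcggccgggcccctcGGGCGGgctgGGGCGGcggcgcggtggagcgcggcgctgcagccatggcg

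The GC box occurred 2 times in the Fbln2 window, 3 times in the upstream Ltbp4 window and 7 times in the downstream one, and 35.7% of all 32851 promoter windows held it at least once. The downstream Ltbp4 window was 80.3% G and C, against a median of 52.7% over all windows. Neither gene's windows held the TATA box TATAAA (in 13.6% of all windows), the AP-1 motif TGANTCA (7.81%) or the SMAD-binding box CAGAC (49.6%), each searched on both strands. These are descriptions of letters in short windows, and no binding was measured.

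The values are intensities on a linear scale, already processed by the authors, and tests were made on log2(intensity + 50), so that a log2 difference of 1 is about a doubling for a bright gene. A gene was called at an adjusted p under 0.05 from limma's model of all 8 arrays, with Benjamini-Hochberg adjustment over the 10040 genes. Standard errors (SE), 95% intervals and adjusted p-values below all come from that model. The number of arrays limits the precision, since 3 mice against 3 could not reach an exact permutation p below 0.1 for a single gene.

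**Figure D1:**
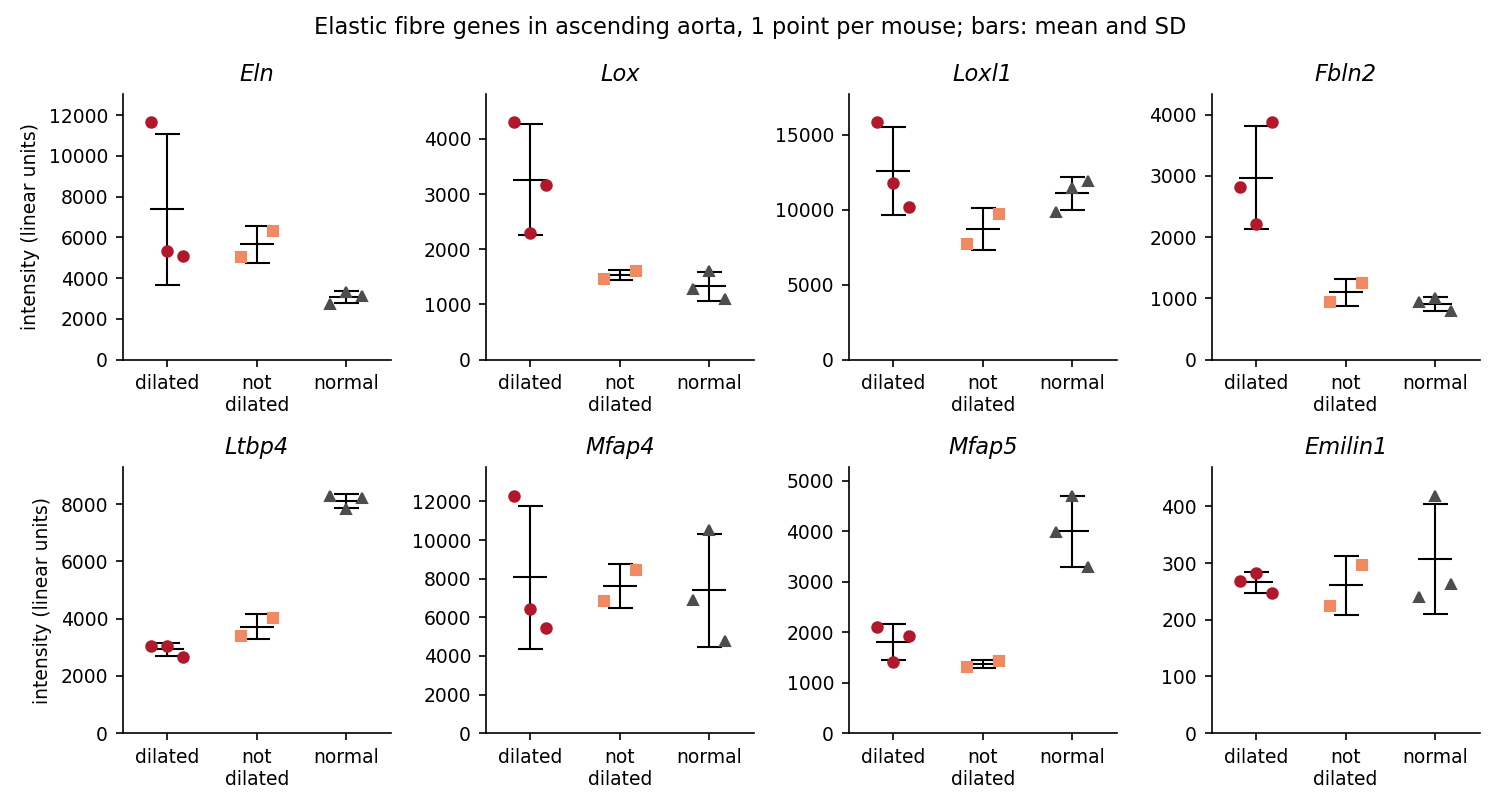
Intensity of the 8 tested genes in linear units (y axis, from 0) by group (x axis), with 1 point per mouse and bars for the mean and SD (n = 3, 2 and 3). The Eln points of both MPS VII groups lie above all 3 normal points, those of Lox and Fbln2 do so in dilated aorta and overlap with normal aorta without dilatation, and those of Ltbp4 and Mfap5 lie below the normal points in both MPS VII groups.

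Eln mRNA read higher in the MPS VII aortas than in the normal ones, and elastin protein was not measured. Eln read 11664.9, 5343.9 and 5109.2 in the 3 dilated aortas, 5023.5 and 6292.0 in the 2 without dilatation and 2750.4, 3341.1 and 3108.1 in the normal aortas. Every MPS VII mouse lay above every normal mouse, and dilated replicate 1 lay far above the other 4. The log2 difference of dilated minus normal was 1.15 (SE 0.29, 95% interval 0.50 to 1.80, limma adjusted p = 0.0235). It was 0.76 without dilated replicate 1 (limma adjusted p = 0.0154), and the call ended without any 1 of the normal replicates 1, 2 and 3 (adjusted p = 0.0802, 0.0525 and 0.0698) and with age (log2 difference 1.04, adjusted p = 0.0622) or the adipocyte marker mean (log2 difference 1.91, adjusted p = 0.0784) as a covariate. Without dilatation the log2 difference from normal was 0.87 (SE 0.32, 95% interval 0.14 to 1.59) and did not pass (limma adjusted p = 0.109). It passed when the model left out dilated replicate 1 (limma adjusted p = 0.0204) or held only the groups compared (0.0230), with the same log2 difference. Against the aortas without dilatation, Eln in dilated aorta had a log2 difference of 0.28 with a 95% interval of -0.45 to 1.00 (limma adjusted p = 0.866), or -0.11 without dilated replicate 1.

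Lox encodes lysyl oxidase, the copper enzyme that cross-links elastin and collagen. It read 4305.6, 2300.7 and 3166.7 in dilated aorta, 1467.8 and 1597.8 in MPS VII aorta without dilatation and 1276.1, 1603.9 and 1100.5 in normal aorta. The dilated aortas lay above the other 5, and the remaining groups overlapped. Dilated minus normal gave a log2 difference of 1.24 (SE 0.22, 95% interval 0.73 to 1.74, limma adjusted p = 0.00710). That of not dilated minus normal was 0.22 (95% interval -0.35 to 0.78, limma adjusted p = 0.586).

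Loxl1, a lysyl oxidase-like enzyme that is tethered to sites of elastin assembly, did not pass in either comparison with normal aorta. Its intensities were 15859.5, 11769.6 and 10189.5 in dilated aorta, 7730.5 and 9722.7 without dilatation and 9858.6, 11466.5 and 11947.0 in normal aorta. The dilated group overlapped with the normal one, while the 2 mice without dilatation lay below the other 6. The log2 difference was 0.16 for dilated minus normal (95% interval -0.25 to 0.57, limma adjusted p = 0.538) and -0.35 for not dilated minus normal (95% interval -0.81 to 0.11, limma adjusted p = 0.271).

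Fbln2 encodes fibulin-2, which binds tropoelastin and fibrillin. On probe 4230228 it read 2823.4, 2213.9 and 3879.0 in dilated aorta, 945.2 and 1253.9 in MPS VII aorta without dilatation and 934.3, 1012.8 and 786.5 in normal aorta. All 3 dilated aortas lay above the other 5, whose groups overlapped. The log2 difference of dilated minus normal was 1.62 (SE 0.21, 95% interval 1.15 to 2.10, limma adjusted p = 0.00164), and that of not dilated minus normal was 0.25 (95% interval -0.28 to 0.78, limma adjusted p = 0.492). Probe 6040521, annotated to another Fbln2 transcript, gave 244.7, 198.6 and 302.6 in dilated aorta, 81.3 and 81.5 without dilatation and 86.0, 92.0 and 83.5 in normal aorta. There too the dilated aortas were highest, with a log2 difference of dilated minus normal of 1.11, while the 2 mice without dilatation lay just below the normal ones (-0.06). Probe 5900152 passed the background bound of 25.6 on only 1 array, dilated replicate 3, at 33.6.

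Fbln5 encodes fibulin-5, which in the mouse is needed for elastic fibres to form. Its 1 probe (3180253) lay between -17.8 and 3.8 on the 8 arrays, below background throughout, so this probe gives no comparison of Fbln5 between groups.

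Ltbp4 encodes a latent TGF-beta binding protein that in the mouse acts with fibulin-5 in elastin deposition. It had the smallest adjusted p of the tested members in both comparisons with normal aorta. Probe 5420747 read 3047.5, 3061.6 and 2662.4 in dilated aorta, 3411.1 and 4035.9 in MPS VII aorta without dilatation and 8304.1, 7822.3 and 8205.8 in normal aorta. The groups did not overlap, with the dilated aortas lowest. Dilated minus normal gave a log2 difference of -1.46 (SE 0.12, 95% interval -1.73 to -1.19, limma adjusted p = 0.000298), and by p-value Ltbp4 ranked 23 of 10040 genes. That of not dilated minus normal was -1.12 (SE 0.14, 95% interval -1.42 to -0.81, limma adjusted p = 0.00593).

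The other Ltbp4 probes gave the same direction. Probe 1570672 read 2559.5, 2839.5 and 2216.6 in dilated aorta, 3427.4 and 4121.0 without dilatation and 6669.8, 7555.8 and 6125.2 in normal aorta. The dim probe 5890707 read 49.8, 83.4 and 44.1 in dilated aorta, 122.7 and 114.7 without dilatation and 169.7, 198.2 and 154.2 in normal aorta. On each of the 3 probes the dilated mice were lowest, the mice without dilatation in the middle and the normal mice highest, with no overlap. The spread of Ltbp4 within groups was small, with a residual SD of 0.11 on the log2 scale, against a median of 0.19 over all genes.

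**Figure D2:**
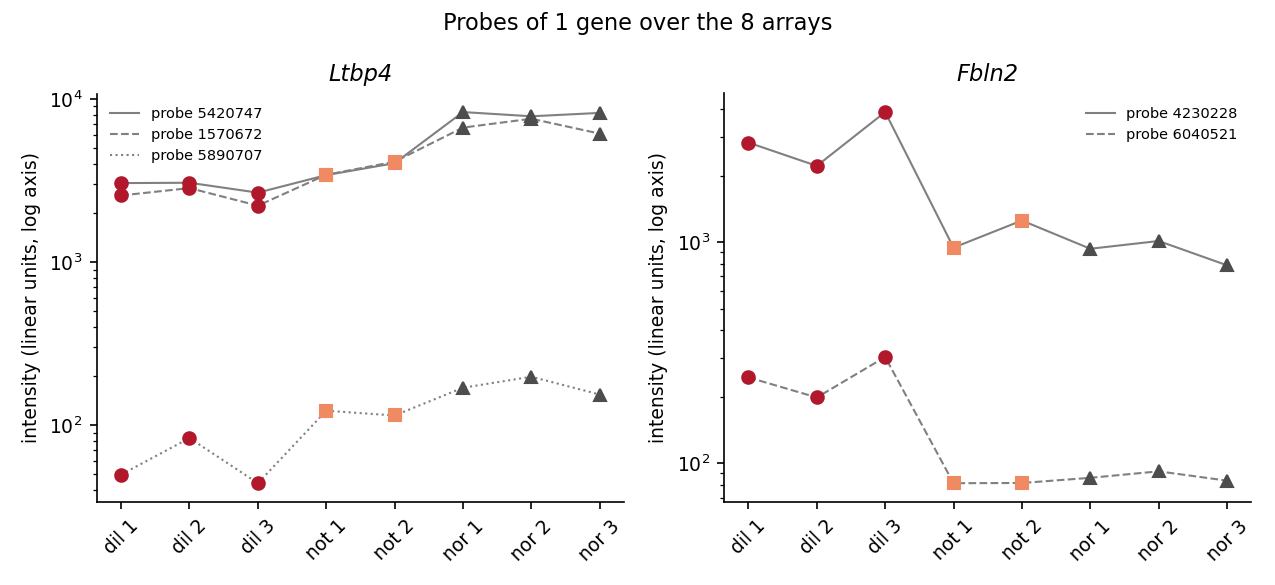
Intensity of 3 Ltbp4 probes and 2 Fbln2 probes (y axis, linear units on a log axis) on the 8 arrays (x axis), with circles for dilated, squares for not dilated MPS VII and triangles for normal aorta, and lines joining the values of 1 probe. Dilated aorta is lowest on each Ltbp4 probe and highest on each Fbln2 probe.

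Mfap5 encodes microfibril-associated glycoprotein 2, which binds fibrillin. It read 2106.3, 1415.7 and 1918.0 in dilated aorta, 1318.3 and 1427.9 in MPS VII aorta without dilatation and 3993.4, 4706.6 and 3291.0 in normal aorta. Every MPS VII mouse lay below every normal mouse, and the MPS VII groups overlapped. The log2 difference of dilated minus normal was -1.12 (SE 0.18, 95% interval -1.53 to -0.71, limma adjusted p = 0.00448). That of not dilated minus normal was -1.49 (SE 0.20, 95% interval -1.95 to -1.04, limma adjusted p = 0.00808), and this call ended without not dilated replicate 1 (log2 difference -1.44, limma adjusted p = 0.0534).

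Mfap4, whose product binds tropoelastin, had wide spreads. It read 12305.0, 6452.0 and 5461.2 in dilated aorta, 6824.8 and 8448.2 without dilatation and 6883.9, 10529.6 and 4770.9 in normal aorta, and all 3 groups overlapped. The log2 difference of dilated minus normal was 0.11 with a 95% interval of -0.67 to 0.88 (limma adjusted p = 0.840). With the adipocyte marker mean as a covariate it was 1.18 in dilated and also 1.18 in not dilated minus normal, and did not pass (limma adjusted p = 0.231 and 0.341).

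Emilin1 encodes a glycoprotein found where elastin meets the microfibrils. It read 267.6, 283.0 and 247.2 in dilated aorta, 224.3 and 297.4 without dilatation and 240.6, 419.3 and 263.1 in normal aorta. The groups overlapped, and the log2 differences from normal were -0.15 for dilated (limma adjusted p = 0.603) and -0.18 for not dilated aorta (0.596).

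Across the whole array, dilated minus normal called 9.82% of genes as higher and 10.4% as lower, against 3 and 2 of the 8 tested members. Not dilated minus normal called 4.84% of genes as higher and 5.17% as lower, against 0 and 2 of the 8 (Ltbp4 and Mfap5). The median absolute log2 difference of the 8 members was 1.14 in dilated minus normal, against 0.27 over all genes, and 0.30 in not dilated minus normal, also against 0.27. The called members moved in opposite directions, and Mfap4 and Loxl1, which did not pass, held the middle values. The median signed log2 difference of the members in dilated minus normal was 0.14, beside -0.05 over all genes. These comparisons share the 3 normal arrays, so their values are not independent. With the mean of the adipocyte markers as a covariate, 1 member (Ltbp4, limma adjusted p = 0.0278) was called in dilated minus normal and 0 in not dilated minus normal. The log2 differences of dilated minus normal in that model were 1.91 for Eln, 1.63 for Lox, 1.63 for Fbln2, -1.30 for Ltbp4 and -0.89 for Mfap5, and those of not dilated minus normal were -0.96 for Ltbp4 and -1.26 for Mfap5, so all kept their direction. In that model 137 and 2 of all genes were called, against 2032 and 1005 without the covariate. The adipocyte marker mean did not overlap between MPS VII and normal aortas. On the log2 scale it was 10.76 to 11.63 in dilated, 10.66 to 11.57 in not dilated and 9.04 to 10.13 in normal aorta. With this design the model therefore cannot tell the adipocyte markers and MPS VII status apart.

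**Figure D3:**
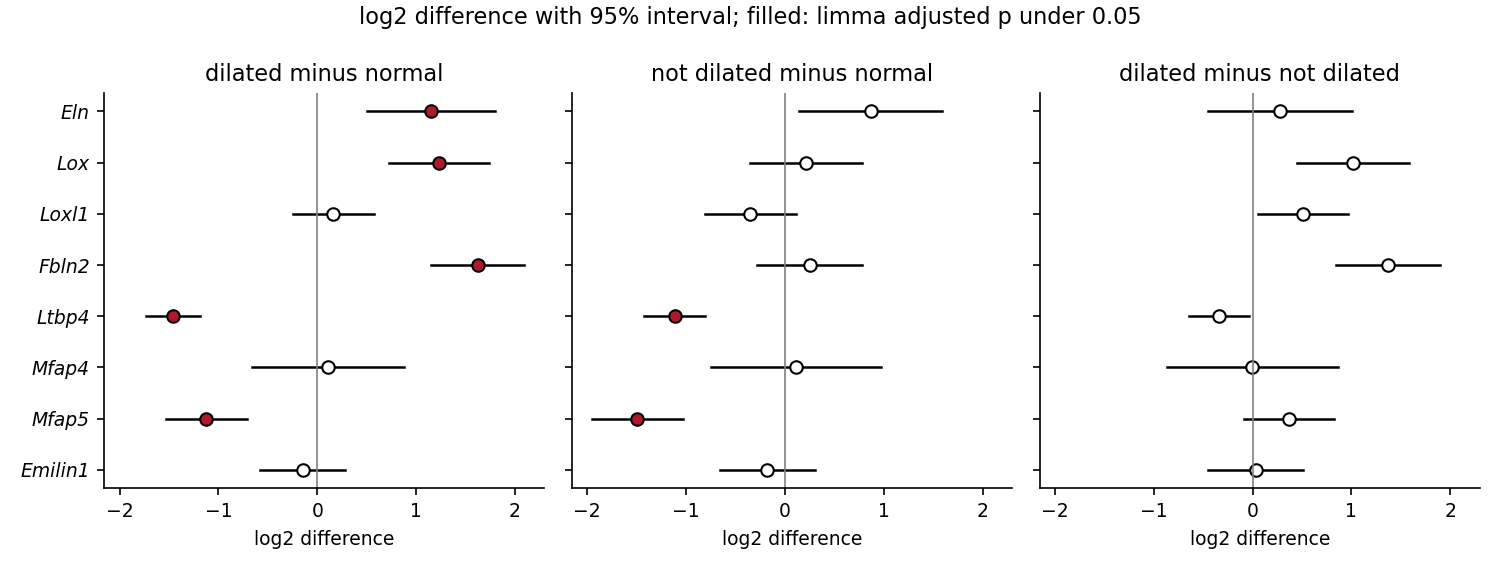
The log2 difference of each of the 8 tested genes (x axis, with 95% intervals) in 3 comparisons, with filled points for a limma adjusted p under 0.05. Eln, Lox and Fbln2 lie to the right and Ltbp4 and Mfap5 to the left in dilated minus normal, only Ltbp4 and Mfap5 are filled in not dilated minus normal, and no point is filled in dilated minus not dilated.

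The comparison within MPS VII asks which genes differ between aortas that widened and aortas that did not. Here 0 of the 8 members were called by limma, and 0% of all 10040 genes were called as higher and 0% as lower. At an unadjusted p under 0.05 there were 4 members (Lox, Loxl1, Fbln2 and Ltbp4), with 560 genes higher and 350 lower over the whole array. Fbln2 had the largest log2 difference of the members, 1.37 (SE 0.23, 95% interval 0.84 to 1.90, limma adjusted p = 0.156), and ranked 14 of 10040 genes by p-value. Lox had a log2 difference of 1.02 (SE 0.25, 95% interval 0.45 to 1.59, limma adjusted p = 0.301) and ranked 88. Each of the 3 dilated mice lay above each of the 2 mice without dilatation for Lox, Fbln2 and Loxl1, and below them for Ltbp4. The share of all genes that separate these few mice in this way was not counted. Ltbp4 had a log2 difference of -0.34 (95% interval -0.65 to -0.04, limma adjusted p = 0.501) and Loxl1 one of 0.51 (95% interval 0.05 to 0.97, limma adjusted p = 0.501). Mfap5, Mfap4 and Emilin1 had log2 differences of 0.37, -0.004 and 0.03 with 95% intervals of -0.09 to 0.83, -0.87 to 0.86 and -0.45 to 0.51. With sex as a covariate Fbln2 passed (log2 difference 1.44, limma adjusted p = 0.0268).

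Over all 5 MPS VII mice, with equal weight for the dilated and the not dilated mean, the same 5 members passed against the 3 normal mice. Eln had a log2 difference of 1.01 (limma adjusted p = 0.0234), Lox of 0.73 (0.0317) and Fbln2 of 0.94 (0.0101). Ltbp4 had -1.29 (limma adjusted p = 0.000450) and Mfap5 -1.31 (0.00163). Over all genes this comparison called 11.1% as higher and 13.3% as lower. For Lox and Fbln2 the MPS VII mice overlapped with the normal ones, and the call of Lox ended without not dilated replicate 1 or 2 or normal replicate 1 or 3 (limma adjusted p = 0.0639, 0.0691, 0.0937 and 0.123) and with values under 16 set to 16 (0.0520) or with the replicate number as a block (0.0580). The call of Eln ended without not dilated replicate 2 or any 1 of normal replicates 1, 2 and 3 (limma adjusted p = 0.0583, 0.0848, 0.0533 and 0.0778). With the adipocyte covariate 0 of the 8 members were called here, and 61 of all genes against 2446. The log2 differences were then 1.76 for Eln, 1.115 for Lox, 0.95 for Fbln2, -1.13 for Ltbp4 and -1.08 for Mfap5.

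Of the 2 aortas without dilatation, replicate 2 lay above replicate 1 for all 8 tested members. Among the dilated aortas, replicate 1 was highest for Eln, Lox, Loxl1, Mfap4 and Mfap5, replicate 3 was highest for Fbln2, and replicate 2 was highest for Ltbp4 and Emilin1. Relative to the normal mean, Eln in dilated replicates 1, 2 and 3 lay at log2 differences of 1.92, 0.80 and 0.73, Lox at 1.68, 0.79 and 1.24 and Fbln2 at 1.59, 1.24 and 2.04. The 3 dilated mice thus ordered differently for each of the 3 genes that rose. Among the normal mice, replicate 2 was highest for Eln, Lox, Fbln2, Mfap4, Mfap5 and Emilin1. The residual SD of Mfap4 and Eln, 0.54 and 0.44 on the log2 scale, exceeded that of 96.8% and 94.2% of all genes.

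Markers of several cell types moved with the groups. For scale, 9.82% of all genes were called higher and 10.4% lower in dilated minus normal, and 4.84% and 5.17% in not dilated minus normal. The 10 contractile smooth muscle markers summed to 53930 to 98100 intensity units in dilated aorta, 77350 to 103600 without dilatation and 117200 to 146800 in normal aorta, and 9 of the 10 were called lower in dilated and 2 in not dilated minus normal. Much of each sum is Acta2, which averaged 40910, 46920 and 50830 in the 3 groups and was not called (limma adjusted p = 0.246 in dilated minus normal). In bulk RNA, fewer cells of a type and less RNA per cell cannot be told apart. Of 8 adventitial fibroblast markers 4 were called lower in each comparison with normal aorta, with sums of 29140 to 36450 in dilated, 24560 to 32350 in not dilated and 39200 to 40030 in normal aorta. Much of these sums is Dcn, which averaged 21070, 19100 and 22860 and was not called (limma adjusted p = 0.546 in dilated minus normal). Lum went the other way and did not pass, with log2 differences from normal of 0.77 in dilated and 0.44 in not dilated aorta (limma adjusted p = 0.132 and 0.445). Of 8 macrophage markers 6 were called higher in dilated aorta and 3 without dilatation. Their sums were 10280 to 14660, 3880 to 6585 and 1553 to 2763 in dilated, not dilated and normal aorta. Cd163 went the other way, with log2 differences from normal of -0.61 and -0.75 (limma adjusted p = 0.066 and 0.068). Over all 5 MPS VII mice it was called lower (log2 difference -0.68, limma adjusted p = 0.0288). Cd68 and Csf1r were not tested, and Emr1 is an older symbol of Adgre1, which was tested. Of 7 adipocyte markers 5 and 3 were called higher (35850 to 51670, 32980 to 54350 and 8929 to 20630), and of 9 endothelial markers 4 and 3 (4811 to 10500, 5702 to 6817 and 3377 to 4838). The adipocyte marker Lep went the other way, with log2 differences from normal of -0.48 and -0.69 (limma adjusted p = 0.532 and 0.448). So did the endothelial marker Kdr, with -0.34 and -0.31 (limma adjusted p = 0.167 and 0.284). Tie1, called higher in both, was below background on all normal arrays. Lep is part of the adipocyte marker mean. The 4 cardiomyocyte markers tested summed to at most 215.4 in dilated, 241.9 in not dilated and 83.4 in normal aorta, Tnni3 and Myl2 were not above background, Tnnt2 was not analysed here, and 0 of the 4 cardiomyocyte, 0 of 4 T cell and 0 of 2 erythroid markers were called. In dilated minus not dilated 0 markers of any list were called. The part of these markers in the differences of Eln, Lox, Fbln2, Ltbp4 and Mfap5 was not tested. The adipocyte covariate cannot decide it, since the mean of those markers did not overlap between MPS VII and normal aortas.

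Around the listed genes, 36 of 53 gene symbols in 7 related lists were tested, and 45 of the 53 had a probe. Ctgf and Ccn2 among them are symbols of the same gene, which was tested as Ccn2. In dilated minus normal 11 of the 36 were called higher and 4 lower, and in not dilated minus normal 3 higher and 2 lower. Among the 11, Ctsl, Mmp12 and Thbs1 were above background only on MPS VII arrays. Over all genes the shares called higher and lower were 9.82% and 10.4% in dilated minus normal. They were 4.84% and 5.17% in not dilated minus normal, and the count of each list below stands beside these shares. Their median log2 differences were 0.03 and -0.10, beside -0.05 and -0.06 over all genes. In dilated minus not dilated 0 of the 36 were called.

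Among further genes of cross-linking, 1 of 4 was higher in dilated aorta. Loxl2, a lysyl oxidase-like enzyme, averaged 62.9 ± 12.8 in dilated, 21.5 ± 7.30 in not dilated and 22.2 ± 6.03 in normal aorta (SD, n = 3, 2 and 3), with a log2 difference of dilated minus normal of 0.64 (limma adjusted p = 0.0130) and 1 of 3 normal arrays above background. Bmp1, the protease that processes procollagens and pro-lysyl oxidase, fell to 1117 ± 271 without dilatation, against 2099 ± 207 in normal aorta (log2 difference -0.90, limma adjusted p = 0.0181), and averaged 1754 ± 75.3 in dilated aorta (log2 difference -0.25, limma adjusted p = 0.255).

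In the list of further microfibril genes 2 of 3 were lower in dilated aorta. Thsd4, an ADAMTS-like protein that promotes fibrillin microfibrils, averaged 302.5 ± 110 in dilated, 449 ± 104 in not dilated and 869 ± 25.2 in normal aorta, and its log2 difference of dilated minus normal was -1.43 (limma adjusted p = 0.00362). Adamtsl4, a relative that binds fibrillin, averaged 309 ± 34.4 in dilated, 297 ± 12.2 in not dilated and 623 ± 68.3 in normal aorta. Its log2 differences from normal were -0.91 in dilated (limma adjusted p = 0.00260) and -0.95 in not dilated aorta (0.0120). Mfap2, the other microfibril-associated glycoprotein, averaged 623 ± 78.6, 595 ± 2.55 and 648 ± 129 in dilated, not dilated and normal aorta, and had a log2 difference of -0.04 in dilated minus normal (limma adjusted p = 0.861).

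Of the other fibulins tested, Fbln7 was higher in both MPS VII groups, with means of 77.3 ± 28.4 in dilated, 73.2 ± 6.73 in not dilated and 10.9 ± 17.98 in normal aorta, where 1 of 3 arrays was above background (limma adjusted p = 0.0158 and 0.0410). Fbln1 averaged 5201 ± 480 in dilated, 5438 ± 2410 in not dilated and 5655 ± 748 in normal aorta and did not pass (0.733 and 0.769). The other latent TGF-beta binding protein genes tested did not pass in dilated minus normal. Ltbp1 and Ltbp3 had log2 differences of -0.25 and -0.23 there (limma adjusted p = 0.635 and 0.344), against -1.46 for Ltbp4. Emilin2 and the multimerin gene Mmrn2 did not pass either, with log2 differences of 0.37 and 0.48 (0.384 and 0.209).

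Of 10 proteases listed as elastin-degrading, 6 were called higher in dilated aorta and 2 without dilatation, and 0 were called lower. Over all genes 9.82% and 4.84% were called higher in these comparisons. The 6 were Ctsk, Mmp2, Ctsl, Mmp12, Mmp14 and Ctsb, and their activity against elastin was not measured. Ctsk, or cathepsin K, averaged 2126 ± 512 in dilated, 1603 ± 59.8 in not dilated and 722 ± 73.7 in normal aorta, with log2 differences from normal of 1.47 and 1.10 (limma adjusted p = 0.00111 and 0.0156). Mmp2, a gelatinase, averaged 7585 ± 1669 in dilated, 4808 ± 581 in not dilated and 3614 ± 97.8 in normal aorta (log2 difference of dilated minus normal 1.04, limma adjusted p = 0.00448). Ctsl and the macrophage elastase gene Mmp12 were below background on all normal arrays and entered the test only through MPS VII arrays. Their calls are not independent of that entry, and their p-values are not given. Dilated aorta had at least 2.00-fold higher Ctsl, and it was at least 1.58-fold higher without dilatation. These bounds take the background bound as the normal level on the log2(intensity + 50) scale. Mmp12 in dilated aorta was at least 1.84-fold higher than normal on that scale.

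Of 13 TGF-beta pathway genes, 3 were higher and 2 lower in dilated aorta and 0 passed without dilatation. Over all genes 9.82% were called higher and 10.4% lower in dilated aorta, and 4.84% and 5.17% without dilatation. Tgfb1, a ligand gene, averaged 290 ± 70.6 in dilated, 219 ± 37.7 in not dilated and 149 ± 12.4 in normal aorta (log2 difference of dilated minus normal 0.76, limma adjusted p = 0.0142). The ligand genes Tgfb2 and Tgfb3 went the other way and did not pass. Their log2 differences were -0.32 and -0.44 in dilated minus normal (limma adjusted p = 0.311 and 0.227). In not dilated minus normal they were -0.77 and -0.54 (limma adjusted p = 0.073 and 0.22). Thbs1, or thrombospondin 1, which can activate latent TGF-beta, was below background on all normal arrays and on both arrays without dilatation. It entered the test only through the dilated arrays, so its call is not independent of that entry and its p-value is not given. In dilated aorta Thbs1 was at least 1.46-fold higher than normal on the same scale. The signal transducers Smad2 and Smad4 fell by 0.45 and 0.41 in log2 units (limma adjusted p = 0.0319 and 0.0400), and Tgfbr2, a receptor, rose by 0.43 (0.0294). Over all 5 MPS VII mice the 7 lists had 7 higher and 6 lower calls of 36, against 11.1% and 13.3% of all genes. Among them was Tgfbr1, a receptor, which averaged 4711 in dilated, 4326 in not dilated and 6337 in normal aorta. It was singled out after its value was seen (log2 difference -0.49, limma adjusted p = 0.0462).

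**Figure D4:**
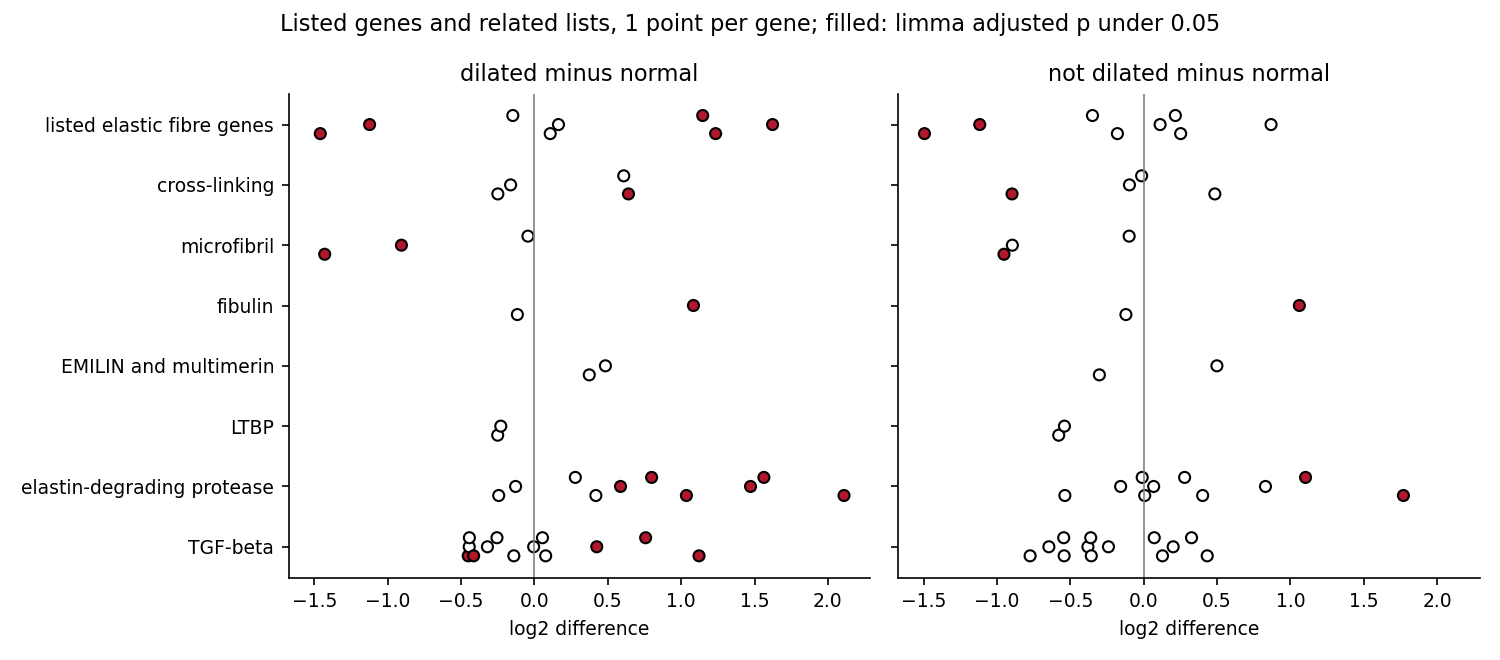
The log2 difference (x axis) of the 8 tested elastic fibre genes and of 36 genes in 7 related lists (rows) in dilated minus normal (left) and not dilated minus normal (right), with 1 point per gene, filled where the limma adjusted p was under 0.05. Among the elastic fibre genes filled points lie on both sides of 0 on the left and only below 0 on the right, and among the proteases they lie only above 0 in both.

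The genes whose pattern over the 8 arrays was most like that of Eln and of Ltbp4 were found by the Euclidean distance between gene-centred log2 values. For Eln the nearest 5 were Kank4, Gpr34, Tulp1, Ppfibp2 and Tmem98, at distances of 0.53 to 0.78, against a median of 1.91 over all other named genes. Kank4 read 260.3, 85.5 and 78.2 in dilated aorta, 64.6 and 77.0 without dilatation and 33.2, 53.7 and 32.1 in normal aorta, with dilated replicate 1 far above the rest, as for Eln. For Ltbp4 the nearest were Clec3b, Crtc3, Hspa2, Prkaa2 and Pigz, at distances of 0.29 to 0.43 (median 1.86). Clec3b, which is also in the list of fibroblast markers, read 135.9, 153.8 and 156.4 in dilated aorta, 185.2 and 204.9 without dilatation and 461.6, 439.9 and 490.0 in normal aorta, and its groups did not overlap. Prkaa2, a catalytic subunit of AMP-activated protein kinase, read 132.1, 120.5 and 98.3 in dilated, 165.6 and 141.7 in not dilated and 373.9, 332.0 and 345.5 in normal aorta. Among pairs of members, Loxl1 and Emilin1 had the smallest distance, at 0.84, followed by Lox and Fbln2 at 0.85 and Ltbp4 and Mfap5 at 1.01. This distance is also small where both genes vary little, so it does not by itself show a shared pattern. In dilated replicate 1, Loxl1 lay at a log2 difference of 0.52 from its normal mean and Emilin1 at -0.14.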

How the data were processed

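RNA of 8 ascending aortas, 1 mouse per array, was measured on Illumina expression arrays. The values are the deposited intensities of 25697 probes, with 27.8% to 28% of values below 0 on each array and medians of 17.75 to 17.99. The submitters' processing notes name GenomeStudio and Partek; background subtraction and normalization by the authors are inferred from the values, and no source read for this work states the steps. A second table was not used, since its 16 value columns match no single sample. Noise (SD 10.99) was taken from the values below 0, a probe was above background past 25.56 (one-sided 0.01), and probes above it on at least 2 arrays were kept (12913). Between 45% and 45.2% of probes passed on each array. Symbols came from the platform annotation (1 symbol for 23141 probes, several for 0, none for 2556), and 23141 matched the gene table of GRCm38.p6 by Entrez identifier. Each gene was its probe with the highest mean, which gave 10040 genes (1085 of them unnamed probes).

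A mean per group was fitted to log2(intensity + 50) with limma 3.58.1 in R 4.3.3 (lmFit, eBayes, 5 residual and 4.05 prior degrees of freedom), with two-sided tests and Benjamini-Hochberg adjustment over all genes, after a check on simulated data. Named genes are all members, related-list genes past the threshold (at most the 4 with the smallest adjusted p per list and comparison) and the 5 genes nearest to Eln and to Ltbp4. Some others were chosen after their values were seen. They are Mfap2, Fbln1, Ltbp1, Ltbp3, Emilin2, Mmrn2, Tgfbr1, Tgfb2, Tgfb3, Mmp14 and Ctsb, and the markers Cd163, Lum, Lep, Kdr, Tie1, Acta2 and Dcn. The members and lists were chosen with earlier results of these data known. Alternatives covered the offset, floor, filter, normalization, weights, covariates, replicate block, probe choice, groups fitted and each left-out replicate. Replicates are mice.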

Additional observations from a re-analysis of the deposited data

Results flagged for a closer look

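Eln in dilated replicate 1 stood apart from the other 4 MPS VII aortas. Its intensity of 11664.9 was followed by 6292.0, in not dilated replicate 2, and the lowest was 5023.5, so that the gap to its neighbour was 0.809 of the range over the 5 MPS VII mice, above Dixon's critical value for 5 samples. Chance alone gives a gap above that critical value in about 1 of 20 groups, and 8 genes were looked at. The rule takes the 5 mice as 1 group, though 3 were dilated and 2 were not. Lox, Loxl1 and Mfap4 were also highest of all 8 arrays in this mouse.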

How the results depend on the processing

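The called members kept their direction under all alternatives tried: of 247 recomputed values, 221 stayed past the threshold, 26 did not and 0 changed sign. Ltbp4 in dilated minus normal passed under all 21, with log2 differences of -1.55 to -1.30. With the adipocyte marker mean as a covariate the number of members called was 1 in dilated minus normal, 0 in not dilated minus normal and 0 over all MPS VII mice, against 5, 2 and 5, while the log2 differences of the members called without it kept their sign (in dilated minus normal 1.91 for Eln, 1.63 for Lox, 1.63 for Fbln2, -1.30 for Ltbp4 and -0.89 for Mfap5). With sex as a covariate it was 1 in dilated minus not dilated, against 0. Leaving out 1 replicate gave 4 to 5 members in dilated minus normal, 1 to 3 in not dilated minus normal, 3 to 5 over all MPS VII mice and 0 in the comparison within MPS VII. The lowest count of not dilated minus normal came without not dilated replicate 1, and the 3 over all MPS VII mice came without not dilated replicate 2, normal replicate 1 or normal replicate 3. Over all genes the counts called were 137 to 3324 in dilated minus normal, 2 to 1538 in not dilated minus normal, 0 to 19 in dilated minus not dilated and 61 to 3444 over all MPS VII mice, against 2032, 1005, 0 and 2446. Dilated minus normal called 1343, 1089 and 1166 genes without dilated replicate 2, normal replicate 1 and normal replicate 3. Not dilated minus normal called 656 and 1538 without dilated replicate 2 and 3, 81 and 575 without not dilated replicate 1 and 2, and 300, 547 and 195 without normal replicate 1, 2 and 3. All MPS VII minus normal called 1551, 1311 and 1176 without not dilated replicate 1, normal replicate 1 and normal replicate 3. With cyclic loess the split of higher and lower calls was 1121 and 849, against 986 and 1046, in dilated minus normal. It was 567 and 365, against 486 and 519, in not dilated minus normal, and 1282 and 977, against 1115 and 1331, over all MPS VII mice.

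Values that were not called changed sign as follows, and the cause was not tested. In dilated minus normal Emilin1 was 0.03 when arrays were weighted by quality and 0.49 under the adipocyte covariate. In not dilated minus normal Loxl1 was 0.17 and Emilin1 0.45 with that covariate, and Mfap4 was -0.14 with the replicate block. In dilated minus not dilated Mfap4 was 0.02 with sex, 0.005 with the adipocyte covariate and 0.25 with the replicate block, and Emilin1 was -0.078 with age. Over all MPS VII mice Loxl1 was 0.43 and Emilin1 0.47 with the adipocyte covariate, and Mfap4 was -0.017 with the replicate block. Leaving out 1 replicate gave ranges in dilated minus normal of -0.013 to 0.30 for Loxl1, -0.24 to 0.40 for Mfap4 and -0.28 to 0.066 for Emilin1, and in not dilated minus normal of -0.16 to 0.40 for Mfap4 and -0.35 to 0.034 for Emilin1. In dilated minus not dilated they were -0.11 to 0.49 for Eln, -0.35 to 0.23 for Mfap4 and -0.14 to 0.20 for Emilin1, and over all MPS VII mice -0.17 to 0.40 for Mfap4 and -0.30 to 0.05 for Emilin1. A group left with 1 mouse was assumed to vary like the others. The smaller offset of 16 left out 23 probes.

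The replicate numbers only name mice. Same-numbered dilated and normal mice had correlations of their deviations from the group means of -0.19, 0.04 and -0.03. Same-numbered not dilated and normal mice had 0.33 and 0.30, and dilated and not dilated mice -0.15 and 0.00. With the replicate block 5, 2, 0 and 4 members were called in the 4 comparisons.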
